A study of Mus musculus with 40 samples.

Results

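The effect of a high-fat diet (HFD) on brown adipose tissue (BAT) was followed in mice that had been injected with saline, by comparing 5 HFD mice with 5 chow mice across all genes. These 10 libraries were chosen by their labels and are part of a series of 40. The series asks how the receptor *Gpr3* and the β3-adrenergic agonist CL change the transcriptome of BAT, and the saline mice are the vehicle arm of its injection experiment. RNA with poly(A) tails was sequenced, and the reads on the exons of each gene were counted.

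The saline mice were male control littermates of I-3BO mice, a line in which tamoxifen induces *Gpr3* in thermogenic adipocytes. They carried either the *Gpr3* TTG transgene without Cre or *Ucp1*-CreERT2 without the transgene, were labelled wildtype, and do not overexpress *Gpr3*. All were 15 weeks old and housed at 29 °C, close to thermoneutrality, and all received saline daily for 9 days by intraperitoneal injection. Chow mice stayed on chow, whereas HFD mice were injected for 2 days and then fed a diet with 60 kcal% fat for 7 days while injections went on. A second pair of groups served for comparison, the uninjected control littermates of C-3BO mice, which were 13 to 19 weeks old and were kept on chow or given the same diet for 7 days (5 mice each). C-3BO mice themselves express *Gpr3* from *Ucp1*-Cre. *Gpr3* was at 0 to 0.485 CPM in all 10 saline mice, with a log2 fold change between diets of 1.31 ± 1.44 (standard error, edgeR adjusted p = 0.588).

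Brown adipocytes burn fatty acids to make heat through the uncoupling protein UCP1, and at thermoneutrality this drive is low while fatty acids are still built from carbohydrate by de novo lipogenesis. Dietary fat is known to restrain lipogenesis, mainly by lowering the activity of the transcription factors SREBP-1c and ChREBP, and fat feeding can also raise *Ucp1*. The depot contains adipocytes together with endothelial cells, macrophages, fibroblasts and nerve, so bulk RNA reads all of them at the same time.

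Library totals separated the diets. Replicate 4 of the HFD mice had 849126 counts and the other HFD mice had 5386230 to 7284129, whereas chow mice had 7954684 to 12148845 (exact permutation test, two-sided, p = 0.00794, the smallest that 5 against 5 mice allow). The low totals were known when the comparison was chosen, so this p-value is descriptive. All 5 HFD saline libraries belong to the 12 libraries of the series with the lowest totals, as do all HFD CL libraries and, of the HFD C-3BO mice, replicates 4 and 5. These 12 are called low-total libraries here, and the labels name no batch. The cut marks no gap in depth, as HFD saline replicate 3 had 7284129 counts and HFD C-3BO replicate 1, not among them, 7349348. Within saline mice every HFD library is a low-total library and no chow library is, so diet and library kind cannot be told apart from these 10 libraries alone. A fit within HFD C-3BO mice, which holds 2 low-total and 3 other libraries of the same diet and genotype, is therefore given beside the results as the low-total contrast. The defining genes of the tissue were present in every mouse. *Ucp1* lay at 1268 to 3847 CPM and *Cidea* at 1584 to 2656 CPM. Levels are given in CPM, the usual unit of counts relative to the library total, here after scaling by the TMM factor. The smallest level the depth can show, taken as 3 counts, was 0.255 to 0.477 CPM in 9 saline libraries and 3.01 CPM in HFD replicate 4, which covers counting error only. Nothing in the labels says whether mice were collected or sequenced together. The p-values of edgeR rest on the spread between mice within groups, estimated over all 40 libraries and not from the 10 saline mice alone.

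On HFD 288 genes rose and 193 fell in saline mice, of 13277 tested, with edgeR's quasi-likelihood test, a Benjamini-Hochberg adjusted p under 0.05 and a log2 fold change beyond 1. These are 2.17% and 1.45% of the tested genes. The 2 directions were of different kinds. Among the genes that rose, 44 (15.3%) are in lists of liver and epididymis markers, and 50 had no count in any chow mouse. Among the genes that fell, 105 (54.4%) also fell on HFD in control mice, which share no library with the saline mice, whereas 19 of the genes that rose (6.6%) also rose there. In control mice 165 genes rose (1.24%) and 647 fell (4.87%) on HFD. The split between directions depended on scaling. With TMM factors 59.9% of the genes past the thresholds were higher on HFD, and with library totals alone 79.2% were (464 higher, 122 lower), as the median over all tested genes moved on the log2 scale from -0.01 to 0.16. All 288 genes that rose and 122 of the 193 that fell passed under both.

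Genes of de novo lipogenesis fell. Of 25 tested genes for fatty acid synthesis 15 fell and none rose, by edgeR and by DESeq2, and at an unadjusted p under 0.05 19 were lower and 0 higher. Their median log2 fold change was -1.26 against -0.01 over all tested genes. In 12 of the 25 every HFD mouse lay below every chow mouse, which was so for 4.94% of all tested genes. The members that fell cover the pathway from citrate export to desaturation. In bulk tissue fewer cells that express a gene and less RNA per cell cannot be told apart. When 1 mouse was left out at a time, 12 to 15 of the genes fell.

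Citrate leaves mitochondria through the carrier *Slc25a1*, which was at 868, 310.4, 807, 1235 and 843 CPM in chow mice 1 to 5. In HFD mice it was at 178, 194, 264, 169.5 and 302 CPM. No HFD mouse reached the lowest chow mouse, with a log2 fold change of -1.87 ± 0.24 (± standard error here and below, edgeR adjusted p = 2.85e-06). *Acly*, which splits citrate into acetyl-CoA, was at 1611 to 6587 CPM on chow and 436 to 1764 CPM on HFD, so that HFD mouse 5 lay just above the lowest chow mouse (log2 fold change -2.09). *Acss2*, which makes acetyl-CoA from acetate, fell from 225 to 849.5 CPM on chow to 126 to 213 CPM on HFD without overlap (log2 fold change -1.83).

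*Acaca*, the acetyl-CoA carboxylase that makes the building block malonyl-CoA, was at 1757, 642, 1657, 2269.6 and 1210.4 CPM on chow and at 295, 159, 507, 282 and 619 CPM on HFD. The groups did not overlap, although chow mouse 2 and HFD mouse 5 came close (log2 fold change -2.01 ± 0.35, edgeR adjusted p = 0.000195). *Fasn*, the fatty acid synthase, was at 30748, 11119, 33131, 46193 and 30764 CPM on chow and at 4438, 2054, 6796, 4676 and 12812 CPM on HFD. Chow mouse 2 was the lowest of its group for each of these genes and lay below HFD mouse 5 for *Fasn* (log2 fold change -2.30 ± 0.49, edgeR adjusted p = 0.00126). *Fasn* (RefSeq NM_007988) is at positions 120667272 to 120685861 of chromosome 11 in mm9, on the minus strand.

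Elongation and the supply of NADPH followed. *Me1*, the malic enzyme that provides NADPH, was at 924, 227, 1063, 1241 and 435 CPM on chow and at 108, 102, 176, 81.3 and 217 CPM on HFD (log2 fold change -2.49 ± 0.32, edgeR adjusted p = 2.42e-06). *Elovl6*, which lengthens palmitate, was at 615 to 1914 CPM on chow and 176 to 514 CPM on HFD (log2 fold change -2.13 ± 0.29, edgeR adjusted p = 5.61e-06). Neither gene overlapped between diets. The desaturase *Scd1* was at 76319.8, 28219, 81246, 82624 and 54047 CPM on chow and at 29761, 10158, 27644, 18349.8 and 21465 CPM on HFD, with overlap through chow mouse 2 (log2 fold change -1.59 ± 0.37, edgeR adjusted p = 0.00316). Counts may be split between *Scd1* and its close paralog *Scd2*, which fell by 1.63 on the log2 scale. The pentose phosphate enzymes *Tkt* (-1.26) and *Pgd* (-1.02) also fell, whereas *G6pdx* had a log2 fold change of -0.67. *Slc2a5*, a fructose transporter outside the list, was at 40.5, 18.5, 83.6, 83.6 and 11.8 CPM on chow and at 1.93, 2.68, 10.1, 4.01 and 12.2 CPM on HFD (log2 fold change -2.85 ± 0.68, edgeR adjusted p = 0.00388).

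Among the regulators, *Mlxipl*, which encodes ChREBP, fell from 545 to 1083 CPM on chow to 364 to 451 CPM on HFD (log2 fold change -1.07 ± 0.17, edgeR adjusted p = 4e-05). *Srebf1*, which encodes SREBP-1, was at 533 to 865 CPM on chow and 385 to 514 CPM on HFD. These groups did not overlap either, but the log2 fold change of -0.65 ± 0.21 lies below the fold threshold (edgeR adjusted p = 0.0299). *Thrsp*, a lipogenic nuclear protein, fell by 1.11 on the log2 scale. *Acacb*, the carboxylase whose malonyl-CoA restrains fatty acid oxidation, fell by 1.39 ± 0.13 in saline mice and had a log2 fold change of -0.52 in control mice. It was the single lipogenic gene whose diet effect was smaller, on the signed scale, in saline than in control mice (difference -0.87, edgeR adjusted p = 0.00256). Larger and smaller effects between cohorts are on this signed scale throughout, so that a weaker fall counts as a larger effect. Over all tested genes the effect was larger in saline mice for 4.92% and smaller for 4.62%. In control mice 17 of the 25 genes fell, with a median log2 fold change of -1.59.

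**Figure D1:**
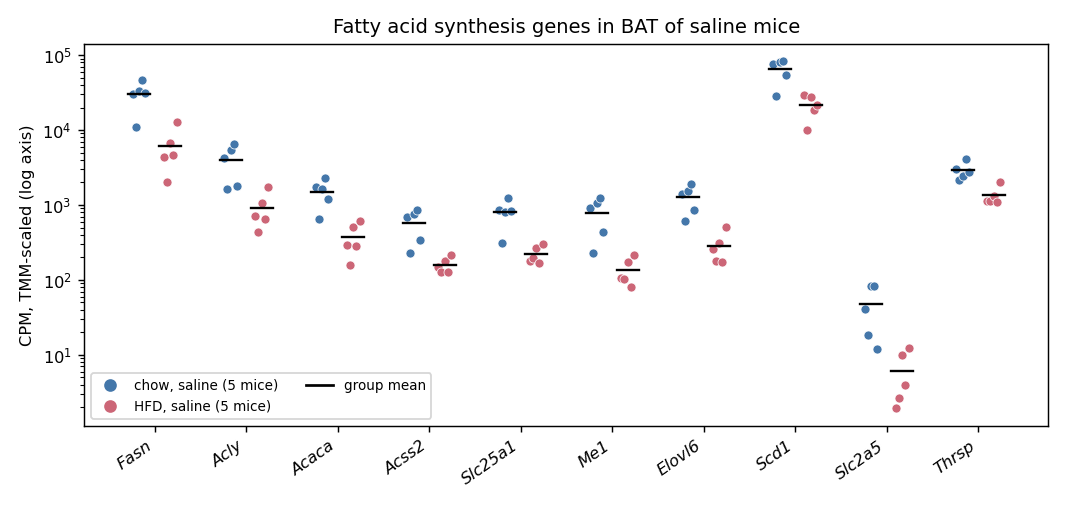
CPM of 10 lipid synthesis genes on a log axis, with 1 point per saline mouse (chow blue, HFD red) and a bar at each group mean. The HFD points of *Me1*, *Elovl6*, *Acaca*, *Slc25a1*, *Acss2* and *Thrsp* all lie below the chow points, and those of *Fasn*, *Acly*, *Scd1* and *Slc2a5* overlap with them.

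The promoters of *Fasn* and *Slc25a1* are shown because these genes, at the export of citrate and at the synthase itself, fell in both cohorts. The CCAAT box is the site of the general factor NF-Y, and the E-box CACGTG can be bound by USF, SREBP-1 and ChREBP-type factors. They are the 250 bases before the RefSeq start on GRCm38.p6, minus strand, at chr11:120824548-120824797 for *Fasn* and chr16:17928220-17928469 for *Slc25a1*. Capitals mark CCAAT or its reverse complement ATTGG, and CACGTG.
Fasn: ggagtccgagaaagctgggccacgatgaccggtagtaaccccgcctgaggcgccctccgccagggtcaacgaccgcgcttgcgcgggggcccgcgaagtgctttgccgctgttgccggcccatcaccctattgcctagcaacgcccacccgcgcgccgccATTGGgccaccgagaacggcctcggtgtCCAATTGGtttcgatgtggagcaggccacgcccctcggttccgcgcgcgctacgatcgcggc
Slc25a1: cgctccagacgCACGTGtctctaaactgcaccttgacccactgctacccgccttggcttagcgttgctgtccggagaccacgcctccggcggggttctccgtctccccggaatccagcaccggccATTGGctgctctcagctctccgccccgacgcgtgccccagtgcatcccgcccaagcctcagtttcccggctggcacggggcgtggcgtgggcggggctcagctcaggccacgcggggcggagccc
Of the 25 lipogenesis genes 22 were matched to 27 such windows. On either strand, CCAAT was found in 13 of them (48.1%, against 33.8% of all 32851 windows), CACGTG in 3 (11.1% against 6.02%) and the sterol response element TCACNCCAC in 1 (3.7% against 1.05%). In windows of the tested genes the shares were 34.8%, 8.13% and 0.996%. For all genes that fell on HFD in saline mice they were 28.7%, 9.2% and 3.45%. None of these motifs overlaps another of a different kind in the windows printed here, and in *Fasn* a pair of CCAAT boxes on opposite strands shares 2 bases. A match describes the letters and is no evidence of binding.

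Cholesterol synthesis genes moved less. Of 23 tested 3 fell and none rose with edgeR or DESeq2 (12 lower and 0 higher at an unadjusted p under 0.05), and the median log2 fold change was -0.42. *Fdft1*, the squalene synthase at the branch to sterols, was at 118, 114, 126, 192 and 211 CPM on chow and at 58.7, 55.8, 73.5, 66.2 and 63.4 CPM on HFD. All HFD mice lay well below all chow mice (log2 fold change -1.27 ± 0.15, edgeR adjusted p = 6.26e-07). *Lss*, the lanosterol synthase, fell by 1.10 and *Pmvk*, the phosphomevalonate kinase, fell by 1.23. *Sqle*, the squalene epoxidase, had a value of -0.48 in saline mice (edgeR adjusted p = 0.204) and fell by 1.84 in control mice, and the 2 effects differed by 1.36 (edgeR adjusted p = 0.00954).

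Of 27 glucose uptake and glycolysis genes 3 fell and none rose with edgeR or DESeq2 (15 lower and 0 higher at an unadjusted p under 0.05), and the median log2 fold change was -0.37. The number that fell was 1 without chow mouse 1 and 6 without HFD mouse 5. *Pdk1*, a kinase that holds back pyruvate dehydrogenase, was at 252, 198, 254, 253 and 233 CPM on chow and at 102, 84.6, 118, 94.3 and 153 CPM on HFD. The groups were far apart (log2 fold change -1.10 ± 0.14, edgeR adjusted p = 1.77e-06), and *Pdk1* fell by 1.23 in control mice. *Irs2*, an adaptor of the insulin receptor, was at 257, 43, 68.3, 51.0 and 30.9 CPM on chow and at 26.0, 27.4, 35.1, 21.1 and 16.8 CPM on HFD. Chow mouse 1 stood far above the rest, and HFD mouse 3 lay above chow mouse 5 (log2 fold change -1.79 ± 0.45, edgeR adjusted p = 0.00537). The call was lost without chow mouse 1 (-0.90). In control mice *Irs2* had a log2 fold change of -0.18, and the difference between cohorts did not pass the test (edgeR adjusted p = 0.0879). The glycolytic aldolase *Aldoc* fell by 1.20 from 1.42 to 5.19 CPM on chow, a call lost in 8 of the 10 fits that left out 1 mouse.

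Other metabolic genes fell in both cohorts. *Acsl5*, which activates long-chain fatty acids for lipid synthesis, was the single gene of 26 for triglyceride handling that passed, and fell by 1.31 in saline and by 1.97 in control mice. *Cyp2e1*, an ethanol-oxidizing cytochrome P450 that is also a liver gene, fell by 1.51 in saline and by 1.32 in control mice, and was the single member of the liver list that fell. Without chow mouse 5, which had the highest liver sum, no member of that list was called lower.

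Thermogenic genes changed little as a group. Of 25 genes for brown adipocyte identity and thermogenesis 1 rose and none fell with edgeR or DESeq2, with a median log2 fold change of -0.08 (5 higher and 4 lower at an unadjusted p under 0.05). The gene that rose was *Gyk*, the glycerol kinase that lets adipocytes re-esterify fatty acids. It was at 62.4, 49.9, 46.5, 46.2 and 45.2 CPM on chow and at 104, 147, 64.8, 78.2 and 204 CPM on HFD. Chow mouse 1 nearly reached the lowest HFD mouse (log2 fold change 1.28 ± 0.33, edgeR adjusted p = 0.00741), and the fold change was 1.46 in control mice. Without HFD mouse 5 the saline value was 0.997, below the fold threshold, and no gene of the list was called.

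*Ucp1* was at 1866, 1732, 1268, 1691 and 1776 CPM on chow and at 2836, 3042, 2311, 2521 and 3847 CPM on HFD. Every HFD mouse was above every chow mouse, yet the log2 fold change of 0.81 ± 0.26 stayed below the fold threshold (edgeR adjusted p = 0.0326). In control mice *Ucp1* rose by 1.98 on the log2 scale, from 1116 to 1378 CPM on chow to 2574 to 9447 CPM on HFD. The diet effect on *Ucp1* was smaller in saline than in control mice (difference -1.18, edgeR adjusted p = 0.0368).

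*Dio2*, which activates thyroid hormone, was at 85.4, 18.4, 19.4, 9.03 and 15.1 CPM on chow and at 26.5, 40.004, 13.7, 10.03 and 19.2 CPM on HFD (edgeR adjusted p = 0.682). *Adrb3*, the receptor that CL acts on, was at 302 to 514 CPM on chow and 213 to 404 CPM on HFD (log2 fold change -0.42, edgeR adjusted p = 0.178). For both genes the groups overlapped broadly. *Elovl3*, an elongase of cold-exposed BAT, had a log2 fold change of -0.44 in saline mice and fell by 3.62 in control mice, a difference of 3.18 (edgeR adjusted p = 0.00656), with chow saline mice at 0.334 to 8.08 CPM and chow control mice at 19.6 to 39.6 CPM. No respiratory chain gene of 66 passed both thresholds with edgeR or DESeq2. At edgeR's adjusted p alone 19 were lower and 0 higher, at an unadjusted p under 0.05 30 were lower and 1 higher, and the median log2 fold change was -0.23.

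Fatty acid oxidation genes and PPAR targets went in both directions, with 2 of 36 rising and 1 falling. *Fabp3*, a fatty acid binding protein of oxidative tissues, was at 132, 216, 107, 80.3 and 135 CPM on chow and at 344, 258, 306, 334 and 234 CPM on HFD, without overlap (log2 fold change 1.14 ± 0.19, edgeR adjusted p = 9.29e-05). *Ehhadh*, a peroxisomal oxidation enzyme, fell by 1.52 (edgeR adjusted p = 0.0408) although HFD mouse 5, at 130.1 CPM, lay within the chow range. This call was lost in 7 of the 10 fits that left out 1 saline mouse, and held without chow mouse 2 or 3 or HFD mouse 5. *Bdh1*, a ketone body enzyme, rose by 2.31 from at most 0.541 CPM on chow and was also higher by 2.81 in the low-total contrast. *Pdk4* and *Angptl4*, PPAR targets, had log2 fold changes of -0.40 and -0.26 that did not pass the test.

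**Figure D2:**
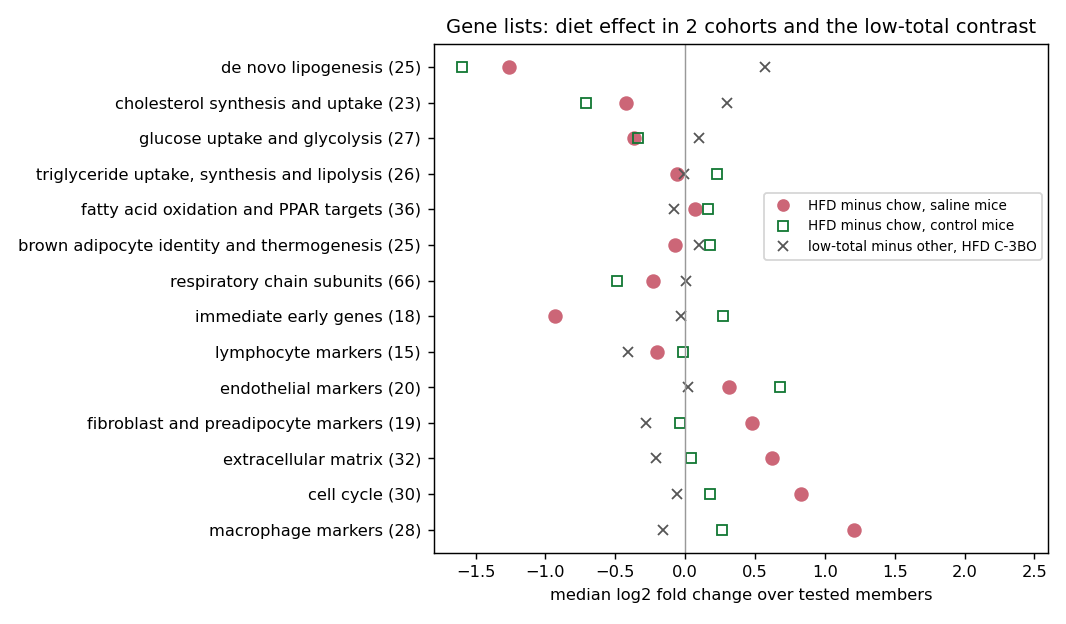
Median log2 fold change of 14 gene lists (number of tested genes in parentheses) for HFD minus chow in saline mice, HFD minus chow in control mice, and low-total minus other libraries within HFD C-3BO mice. Lipogenesis is low in both cohorts at -1.26 and -1.59 and lies at 0.57 in the low-total contrast, whereas macrophage markers reach 1.21 in saline mice and 0.26 in control mice.

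Genes linked to enlarged fat moved in both directions. Of 19 tested adipokine and adipose expansion genes 6 rose, 3 fell and 10 did not pass, and without HFD mouse 3 the number that rose was 3. *Nnat*, a small membrane protein of adipocytes, was at 28.8, 66.6, 29.4, 18.7 and 23.5 CPM on chow and at 133, 355, 324, 88.3 and 97.7 CPM on HFD. Every HFD mouse was above every chow mouse (log2 fold change 2.61 ± 0.40, edgeR adjusted p = 3.58e-05), and the value in control mice was 2.54. *Lep*, the hormone leptin made in proportion to fat stores, was at 78.8, 241, 110.4, 138 and 45.4 CPM on chow and at 426, 448, 668, 386 and 204 CPM on HFD. Chow mouse 2 and HFD mouse 5 overlapped (log2 fold change 1.80 ± 0.54, edgeR adjusted p = 0.0199), and *Lep* rose by 1.58 in control mice. The call of *Lep* in saline mice was lost without chow mouse 1 or 5 or HFD mouse 3.

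*Sncg*, a synuclein found in large adipocytes, was at 13.8, 16.5, 18.1, 12.1 and 8.34 CPM on chow and at 64.4, 83.3, 105, 71.2 and 53.4 CPM on HFD (log2 fold change 2.46 ± 0.30, edgeR adjusted p = 7.9e-07). The lowest HFD mouse was far above the highest chow mouse. The effect was larger than the 0.59 of control mice (difference 1.87, edgeR adjusted p = 0.00367). *Emp1*, an epithelial membrane protein, rose by 1.76, and in control mice it rose by 1.11. *Bmp3*, a member of the BMP family, rose by 1.73 from at most 1.93 CPM on chow, and *Npr3*, the clearance receptor of natriuretic peptides, by 1.31.

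The 3 that fell were *Cfd*, *Retn* and *Peg3*. *Cfd*, which encodes adipsin, was at 1704, 2552, 1872, 2085 and 3338 CPM on chow and at 507, 1493, 865, 857 and 1107 CPM on HFD, without overlap (log2 fold change -1.26 ± 0.32, edgeR adjusted p = 0.00605). It had a log2 fold change of -0.11 in control mice and -1.03 in the low-total contrast. *Retn*, which encodes resistin, fell by 1.24 in saline and by 1.79 in control mice. *Peg3*, an imprinted zinc finger gene, fell by 1.53 and 1.33. *Adipoq*, adiponectin, had a log2 fold change of -0.32 (edgeR adjusted p = 0.0764).

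The 19 genes that rose in both cohorts include none that was called in the low-total contrast, and their median log2 fold change there was -0.04. Besides *Nnat*, *Lep*, *Gyk*, *Fabp3* and *Emp1* they include *Slc6a13*, *Cntfr*, *Nnmt*, *Tifab*, *Crip2*, *Degs2*, *S100b*, *Pmepa1*, *Cyp4b1*, *Prelp*, *Cdon* and *Fam20c*. In 10 of the 19 the saline groups did not overlap. Every HFD mouse was above every chow mouse for 135 of all 288 genes that rose (46.9%) and for 4.09% of all tested genes. The 19 were chosen by their calls in these same mice, so this separation is no further evidence. *Cntfr*, a receptor subunit for ciliary neurotrophic factor, rose by 1.5 and 2.30 in saline and control mice. *Nnmt*, which methylates nicotinamide, rose by 1.34 and 1.37.

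Macrophage genes rose in saline mice. Of 28 tested markers 18 rose and none fell with edgeR (19 and 0 with DESeq2, 24 higher and 1 lower at an unadjusted p under 0.05). The median log2 fold change was 1.21, and the summed level of the list was 229 to 514 CPM on chow and 541 to 1271 CPM on HFD without overlap. *Trem2*, a lipid receptor of adipose macrophages, was at 0.649, 2.23, 3.04, 0.812 and 1.19 CPM on chow and at 7.58, 12.6, 6.55, 23.1 and 4.29 CPM on HFD. All HFD mice exceeded all chow mice (log2 fold change 2.6 ± 0.49, edgeR adjusted p = 0.000471). *Gpnmb*, a glycoprotein of lipid-laden macrophages, was at 6.38, 16.7, 9.84, 2.44 and 4.17 CPM on chow and at 38.2, 60.2, 16.5, 49.2 and 13.7 CPM on HFD (log2 fold change 2.13 ± 0.45, edgeR adjusted p = 0.00126). Its groups overlapped through chow mouse 2. *Emr1*, which encodes F4/80, rose by 1.5 and *Itgam*, which encodes CD11b, by 1.63, both without overlap. The chemokine *Ccl2* rose by 1.78, with chow mouse 1 at 3.78 CPM and the other chow mice at 0.255 to 0.895 CPM, and its call was lost in 7 of 10 fits without 1 mouse. *Lyz2* rose by 1.21, with reads that may be shared with *Lyz1* (1.5).

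HFD replicate 4, the library of lowest total, had the highest level of *Trem2*, *Cd68*, *Emr1*, *Itgam*, *Clec4n* and *Csf1r*. Without it 11 of the 28 markers rose, and leaving out other mice gave 13 to 19. In control mice none of the 28 passed with edgeR or DESeq2 (2 higher and 1 lower at an unadjusted p under 0.05), and the median was 0.26. The effect was larger in saline than in control mice for *Cd68*, *Arg1* and *Clec10a* and smaller for *Cd14*, and for the other 24 markers the difference did not pass. *Cd68*, a lysosomal marker, was at 5.61 to 16.9 CPM on chow and 16.2 to 65.2 CPM on HFD (difference 1.5, edgeR adjusted p = 0.0435). In the low-total contrast the median of the list was -0.16 and *Trem2* had a log2 fold change of -0.07. Exceptions were *Arg1*, which rose by 3.67 and was at 5.67 in the low-total contrast, *Spp1* (2.73 and 3.43) and *Clec4n* (2.55 and 2.04). *Arg1*, a urea cycle enzyme of liver as well as macrophages, is in both the macrophage and the liver list.

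Genes of dividing cells rose with less certainty. Of 30 cell cycle genes 8 rose and none fell with edgeR (9 and 0 with DESeq2, 17 higher and 0 lower at an unadjusted p under 0.05), and 29 had a log2 fold change above 0 (median 0.83). *Mki67*, a marker of proliferation, was at 4.87, 9.36, 11.9, 2.23 and 4.17 CPM on chow and at 19.2, 20.2, 7.77, 27.1 and 7.15 CPM on HFD. The groups overlapped, and the log2 fold change was 1.20 ± 0.39 (edgeR adjusted p = 0.0319). The count of 8 rested on single mice. It was 1 without HFD mouse 1, 2 without HFD mouse 2, and 3 without HFD mouse 4 or without chow mouse 1, 4 or 5. *Ccna2*, cyclin A2, rose by 1.60, *Bub1*, a checkpoint kinase, by 2.04, and *Birc5*, which encodes survivin, by 1.65. In control mice none of the 30 passed with either tool (8 higher and 1 lower at an unadjusted p under 0.05).

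All 32 tested extracellular matrix genes had a log2 fold change above 0 in saline mice (median 0.62), and 1 rose beyond the fold threshold, *Mmp12*, an elastase of macrophages (2.38 ± 0.66, edgeR adjusted p = 0.0121). Without chow mouse 2 the number that rose was 3. With the adjusted p alone 18 were higher. *Sparc*, a collagen-binding matrix protein, was at 1206, 1534, 1555, 1115 and 1151 CPM on chow and at 2539, 2547, 2507, 2715 and 1869 CPM on HFD. The groups were clearly apart (log2 fold change 0.89 ± 0.11, edgeR adjusted p = 9.36e-07). For 9 of the 32 the effect was larger in saline than in control mice and for none smaller. Among them were *Sparc* (difference 0.58, edgeR adjusted p = 0.0139) and *Col6a1* (difference 0.82, edgeR adjusted p = 0.0157), a chain of collagen VI that was at 151 to 289 CPM on chow and 307 to 533 CPM on HFD. Of 19 fibroblast markers 1 rose, *Dpt*, dermatopontin (1.39 ± 0.26, edgeR adjusted p = 0.000326), and 2 rose without chow mouse 2 or 3. Of 20 endothelial markers none passed both thresholds with edgeR or DESeq2, 6 were higher at edgeR's adjusted p alone, 12 were higher at an unadjusted p under 0.05, and in 11 every HFD mouse was above every chow mouse. *Pecam1*, which encodes CD31, was at 159 to 201 CPM on chow and 233 to 293 CPM on HFD (log2 fold change 0.58, edgeR adjusted p = 0.00329). None of 15 lymphocyte markers and none of 10 Schwann cell and nerve markers passed with edgeR or DESeq2, and at an unadjusted p under 0.05 0 and 2 of them were higher and none lower.

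**Figure D3:**
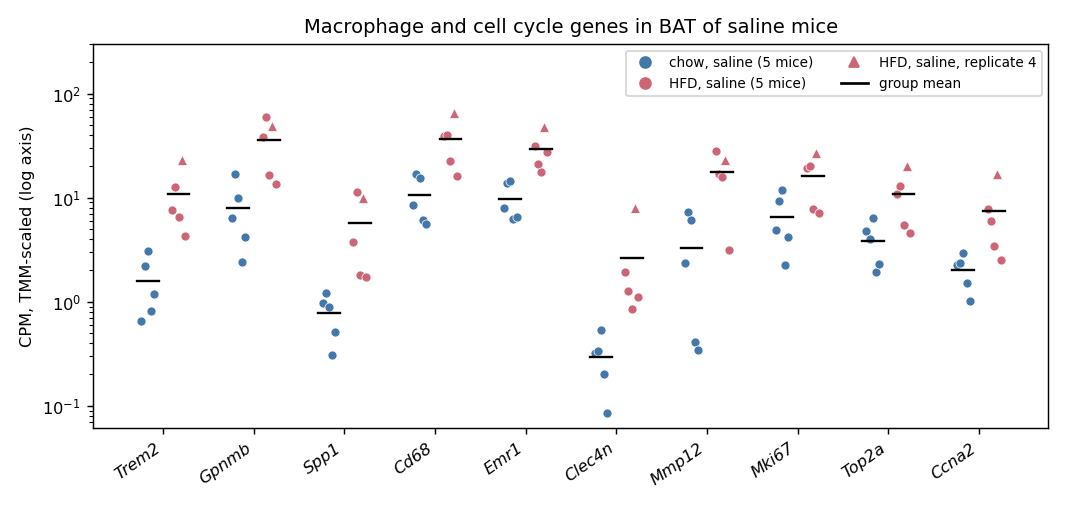
CPM of 7 macrophage-related genes and 3 cell cycle genes on a log axis, with 1 point per saline mouse, a bar at each group mean and HFD replicate 4 drawn as a triangle. Its level is the highest of *Trem2*, *Cd68*, *Emr1*, *Clec4n*, *Mki67*, *Top2a* and *Ccna2*, and all HFD mice lie above all chow mice for *Trem2*, *Spp1*, *Emr1* and *Clec4n*.

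Immediate early genes, which switch on within minutes of a stimulus, were high in some of the chow mice. Of 18 tested 7 fell and none rose with edgeR (8 and 0 with DESeq2, 10 lower and 0 higher at an unadjusted p under 0.05), and in each of them the groups overlapped. *Egr1* was at 51.8, 252, 583, 40.3 and 14.0 CPM on chow and at 16.7, 24.7, 41.4, 29.1 and 21.3 CPM on HFD. Chow mice 2 and 3 stood above all others and chow mouse 5 lay below all HFD mice (log2 fold change -2.83 ± 0.69, edgeR adjusted p = 0.00459). *Nr4a1*, an orphan nuclear receptor induced by cAMP, was at 656, 125, 394, 46.4 and 49.4 CPM on chow and at 94.3, 69.8, 87.5, 102 and 38.9 CPM on HFD (log2 fold change -1.72). *Fosb* fell by 3.32 and *Egr3* fell by 2.75. The number that fell was 4 without chow mouse 3, when *Egr1* was no longer called, and 10 without chow mouse 4 or 5. In control mice none of the 18 passed with either tool (3 higher and 1 lower at an unadjusted p under 0.05), and the effect was smaller in saline mice for 4, *Egr1* among them (difference -4.14, edgeR adjusted p = 0.00461).

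*Irf4*, a transcription factor induced by fasting and cAMP in adipocytes, was at 127, 33.2, 83.5, 61.1 and 33.0 CPM on chow and at 13.8, 12.6, 11.3, 13 and 17.8 CPM on HFD. Here every HFD mouse lay below every chow mouse (log2 fold change -2.29 ± 0.40, edgeR adjusted p = 0.000192). In control mice it had a log2 fold change of -0.82, and the difference did not pass the test (edgeR adjusted p = 0.0786). Of 24 genes of the integrated stress response 2 fell, the pseudokinase *Trib3* (-1.12) and the transcription factor *Atf5* (-1.08), and none rose. The number that fell was 1 without chow mouse 3, 4 or 5 or HFD mouse 2, and 1 gene rose without chow mouse 2.

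The genes with the strongest fall without overlap included several of less studied function. *D830031N03Rik* was at 27.2, 35.3, 23.0, 18.3 and 22.5 CPM on chow and at 5.38, 1.89, 3.40, 2.01 and 1.75 CPM on HFD (log2 fold change -3.02 ± 0.32, edgeR adjusted p = 7.41e-08). *Elk4*, an ETS factor that works with serum response factor, was at 83.5, 93.7, 83.0, 67.6 and 76.1 CPM on chow and at 16.0, 9.29, 20.1, 8.02 and 12.2 CPM on HFD (log2 fold change -2.53 ± 0.29, edgeR adjusted p = 4.34e-07). In both genes the lowest chow mouse was more than 3 times the highest HFD mouse. The control mice had -2.45 and -2.08. *Cbl*, a ubiquitin ligase of receptor signalling, fell by 2.23, *Lmbrd2* by 2.13, *Adcy10*, the soluble adenylyl cyclase, by 2.43 and *Zyg11a* by 2.39. *Zbed6*, which lies inside *Zc3h11a* so that reads of the 2 genes may not be separable, fell by 2.6 and by more in control mice (-4.79, difference 2.19, edgeR adjusted p = 0.0113). *Atp4b*, a subunit of a proton pump, fell by 3.01 from 0.780 to 11 CPM on chow. *Hist1h2be* and *Rpl36*, members of families with near-identical copies, fell by 1.63 and 1.08 and are uncertain for that reason. The call of *Rpl36* was lost without chow mouse 5 or HFD mouse 5.

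A large share of the genes that rose belongs to other organs. *Alb*, albumin of the liver, was at 0.216, 0, 0, 0.203 and 0.0851 CPM in chow mice, 5 counts in all, and at 170.5, 74.8, 67.5, 62.2 and 154 CPM in HFD mice. *Lcn8*, a lipocalin of the epididymis, had no count in chow mice and was at 18.2, 8.82, 9.59, 6.02 and 19.2 CPM in HFD mice. Against 3 counts in each chow library this is at least 41.6-fold higher. Of 46 tested liver genes 39 rose, and of 7 tested epididymis genes 5 rose (*Lcn8*, *Lcn9*, *Gpx5*, *Adam7* and *Adam28*). These lists served to describe the low-total libraries, and genes without counts on chow passed the count filter through other groups. The shares that rose are therefore descriptive and no test. *Ahsg* was at least 38.8-fold, *Cps1* at least 20.6-fold and *Fga* at least 20.5-fold higher, each with no count in chow mice. Of the 62 liver genes counted, 31 had no count in any chow saline mouse and 3 had none in any HFD saline mouse. For the 43 epididymis genes these numbers were 36 and 12. The genes of highest rise outside these lists are also known from liver. *Mat1a* (at least 32.2-fold) and *Gc* (at least 28.0-fold) had no count on chow, and *Pzp* (log2 fold change 5.37) and *Cyp4a14* (5.37) were at most 0.432 CPM there. *Apoa4* and *Cyp2j5* likewise had no count on chow and were at or below 3.03 CPM on HFD.

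The same transcripts marked the other low-total libraries. The summed level of the epididymis list was 1.23 to 2.59 CPM in chow saline mice and 17.1 to 40.5 CPM in HFD saline mice, with 26.4 to 62.6 CPM in HFD CL mice. Within HFD C-3BO mice it was 101 and 89.1 CPM in replicates 4 and 5 and 1.36 to 2.81 CPM in the other 3. It was 1.16 to 2.62 CPM in HFD control mice, none of which is a low-total library. The liver list summed to 122 to 430 CPM in chow and 190 to 486 CPM in HFD saline mice, with overlap, and *Cyp2e1*, at 95.0 to 399 CPM in chow mice, is part of that list. It summed to 830 and 826 CPM in the low-total C-3BO libraries against 103 to 149 CPM in the others. Liver and epididymis genes were thus higher in low-total libraries of the same diet and genotype, and their rise in HFD saline mice cannot be told apart from the kind of library. No testis or pancreas marker passed in saline mice with edgeR or DESeq2, and none did at an unadjusted p under 0.05.

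**Figure D4:**
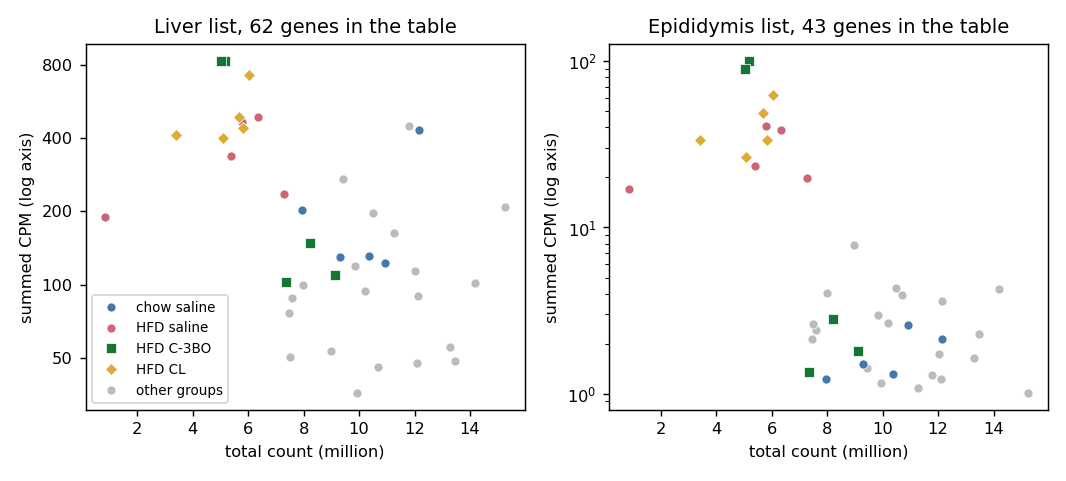
Summed CPM (log axes) of the liver and epididymis lists against the total count of each of the 40 libraries. The 12 low-total libraries have the highest epididymis sums, at 17.1 CPM or more, and the HFD C-3BO libraries fall into 2 low-total libraries and 3 others.

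The low-total contrast was set beside the diet calls in saline mice. It called 105 genes higher (0.791%) and 10 lower (0.0753%). Of the 105 genes 87 were also among the 288 that rose on HFD in saline mice, 82.9% of the former and 30.2% of the latter. These 87 hold all 44 listed liver and epididymis genes that rose, *Arg1* among them. They also hold further genes such as *Pzp*, *Cyp4a14*, *Mat1a*, *Gc*, *Apoa4*, *Cyp2j5* and *Bdh1*. Including genes that were not called there, 108 of the 288 had a log2 fold change above 1 in the low-total contrast. The other 180 (62.5%) were neither listed nor past a log2 fold change of 1 there. They include 15 of the 18 macrophage markers, *Sncg*, *Nnat*, *Lep* and *Fabp3*.

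For genes that fell few could be shared, as the low-total contrast called 10 genes lower in all. Of the 193, 2 were among them, 1.04% of the 193 and 20% of the 10. Of all tested genes 1.45% fell on HFD in saline mice. Of the 193, 170 (88.1%) were neither listed, nor called there, nor past a log2 fold change of -1. The 2 are *BC005561* and *Zbtb20*, named here after their values were seen. *Zbtb20*, a transcriptional repressor with a long RNA, was at 152, 152, 146, 142 and 151 CPM on chow and at 38.0, 29.6, 30.9, 38.1 and 43.5 CPM on HFD (log2 fold change -2.05 ± 0.23, edgeR adjusted p = 2.04e-07). It was at 45.5 and 49.8 CPM in the low-total C-3BO libraries and at 165 to 181 CPM in the other 3 (log2 fold change -1.88), and had a log2 fold change between diets of 0.13 in control mice (edgeR adjusted p = 0.685). None of the 25 lipogenic genes was called in the low-total contrast with edgeR or DESeq2 (7 higher and 0 lower at an unadjusted p under 0.05). Their median log2 fold change there was 0.57, and *Fasn* had a log2 fold change of 1.48 there (edgeR adjusted p = 0.467).

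The low-total effect was also subtracted from the diet effect in saline mice, which adds the error of 2 against 3 libraries, so that the median standard error over genes rose from 0.156 to 0.273. Of the 288 genes that rose 2 still passed, *Azgp1* and *Kirrel3*, 172 kept a log2 fold change above 1 and 227 kept their sign. Of the 193 that fell 37 still passed, 130 stayed below -1 and 183 kept their sign. Among the 37 were *Fasn* (-3.78), *Me1* (-3.07), *Elovl6* (-2.77), *Slc25a1* (-2.49), *D830031N03Rik* (-2.78) and *Pdk1* (-1.22). In this fit 15 of the 25 lipogenesis genes were called lower. Of the 105 genes that fell in both cohorts none was called in the low-total contrast, 10 were below -1 there and 32 passed after subtraction. Of the 28 macrophage markers none passed after subtraction with edgeR and 1 was higher with DESeq2 (14 higher and 0 lower at an unadjusted p under 0.05), where *Trem2* had a log2 fold change of 2.66 (edgeR adjusted p = 0.352).

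**Figure D5:**
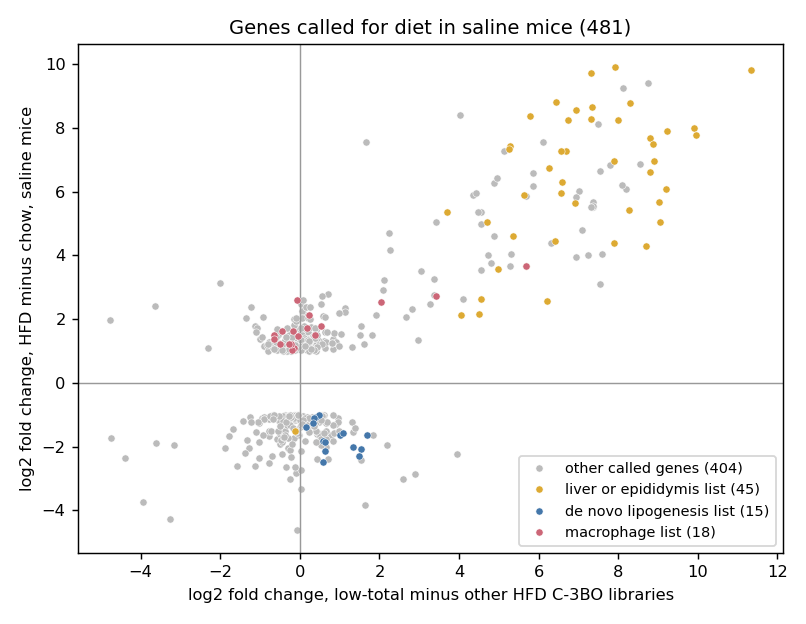
Log2 fold change of HFD minus chow in saline mice (vertical) against low-total minus other libraries within HFD C-3BO mice (horizontal) for the 481 genes called in saline mice. The 45 liver and epididymis genes lie to the upper right except for *Cyp2e1*, the 15 lipogenesis genes lie below 0 and to the right of 0, and 15 of the 18 macrophage genes lie near 0 on the horizontal axis.

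The 2 diet comparisons differed for many genes. At the adjusted p, 653 genes had a larger and 613 a smaller signed effect in saline than in control mice. A larger signed effect can be a weaker fall. Of the called genes 44 that rose and 25 that fell differed. Skeletal muscle transcripts moved with this comparison. All 28 muscle markers fell on HFD in control mice, where their sum was 1524 to 17305 CPM on chow and 87 to 459 CPM on HFD. All 28 are among the 653, with a median log2 fold change of -0.88 in saline and -6.59 in control mice. In saline mice none passed with edgeR or DESeq2, nor at an unadjusted p under 0.05, with sums of 4519, 164, 89.3, 1930 and 2979 CPM on chow and 124, 438, 3683, 106 and 173 CPM on HFD. Without HFD mouse 3, the saline HFD mouse with muscle transcripts, 18 of the 28 fell in saline mice and 344 genes had a larger effect in saline mice. With the muscle sum as a covariate, an analysis added after the data were seen, the numbers were 270 larger and 307 smaller, 14 lipogenic genes fell and 16 macrophage markers rose in saline mice. Cohort, injection, genotype of the littermates, age range and library kind all differ between the 2 comparisons and cannot be told apart.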

How the data were processed

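The authors isolated poly(A) RNA, prepared TruSeq libraries and aligned the reads with STAR to mm9. HOMER was used for tag directories, and iRNA-seq for exon reads of each RefSeq gene. Versions are not given in the sources used here. The deposited values are raw counts per gene and mouse, and every one was a whole number. Counting with no stated use of strand means that reads of overlapping or near-identical genes may be shared.

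Groups were taken from the labels. Of 20295 genes, 13277 passed filterByExpr of edgeR 4.0.16 (minimum count 10, 8 groups). The quasi-likelihood fit used TMM factors, all 40 libraries and a mean for each group, and p-values were adjusted over all tested genes by Benjamini-Hochberg. Genes were called at an adjusted p under 0.05 and a log2 fold change beyond 1, the fold threshold of the study, and differences between cohorts at the adjusted p alone. The standard error is the log2 fold change divided by the square root of F. For the low-total contrast HFD C-3BO was split into replicates 4 and 5, identified by total count, and 1 to 3. Library totals were compared by exact permutation over the 252 regroupings of 5 and 5 mice.

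Named genes were the 10 genes in each direction with the largest change without overlap and at least 5 CPM, up to 6 called members of each gene list, the 10 in each direction with the largest change called alike in control mice, and a fixed set of markers. Results of a few genes that this rule would name are not reported here. Other genes are named as list members or were chosen after their values were seen. The comparison, the gene lists and the markers were chosen with earlier results of these data known. Lists were described by counts and medians, without set tests. Promoter windows came from RefSeq on GRCm38.p6, and gene positions from the deposited table on mm9.

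Library totals were 849126 to 12148845 in the saline mice, and a single gene held at most 8.31% of a library. The replicates differed by more than counting noise, with a smallest chi-square per degree of freedom of 2.74 between mice of a group. On simulated counts for the saline comparison 48 of 50 genes raised by 1.5 on the log2 scale and 47 of 50 lowered by 1.5 were called, with 4 of 13077 unchanged genes. For the low-total contrast these numbers were 44, 41 and 1. Genes of low mean count were not among those changed, and no difference between kinds of library was simulated. Alternatives were DESeq2 1.42.0, other scalings and filters, the saline libraries alone, a replicate block, a low-total library term, thinning to the lowest total, removal of liver and epididymis markers, and each library left out. R 4.3.3, Python 3.11.15 and matplotlib 3.10.9 were used.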

Additional observations from a re-analysis of the deposited data

Results flagged for a closer look

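Among 248 groups of 5 values, 22 held 1 mouse whose gap to its nearest neighbour took up more than 71% of the group's range. The number to be met by chance is not known, as most genes were chosen by their values and the groups are not independent. HFD replicate 4, the library of lowest total, accounted for 7 of the 22. It was the highest HFD mouse for *Clec4n* (8.02 CPM), *Lyz1* (7.02 CPM), *Tifab* (16.0 CPM), *Angptl4* (1119 CPM) and the summed glucocorticoid and metallothionein genes (1720.3 CPM), and the lowest for *Zyg11a* and *Bdh1*, each at 0 CPM, where 3 counts of this library correspond to 3.01 CPM. HFD replicate 3 was the highest for *Sqle* (14.1 CPM), the muscle sum (3683 CPM) and the kidney sum (142 CPM). HFD replicate 5 was the highest for *Ehhadh* (130.1 CPM), the histone sum (85.6 CPM) and the sum of fatty acid oxidation genes and PPAR targets (27608 CPM).

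On chow, replicate 1 was the highest for *Irs2* (257 CPM), *Dio2* (85.4 CPM), *Gyk* (62.4 CPM) and *Ccl2* (3.78 CPM). Replicate 2 was the highest for *Nnat* (66.6 CPM) and *Apob* (0.111 CPM). Replicate 5 was the highest for *Rpl36* (9.78 CPM) and the liver sum (430.2 CPM) and the lowest for *Arg1* (0 CPM).

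The diet effect differed between saline and control mice, by edgeR's test of the difference, for 12 of the genes chosen by the naming rule. On the signed log2 scale the saline effect exceeded the control effect by 6.73 for *Pzp*, 5.46 for *Bdh1*, 4.16 for *Arg1*, 3.18 for *Elovl3*, 2.19 for *Zbed6*, 1.87 for *Sncg*, 1.71 for *Aldoc* and 1.36 for *Sqle*. For *Egr1* the difference was -4.14, for *Zyg11a* -1.74, for *Ier3* -1.49 and for *Ucp1* -1.18. Of these, *Pzp*, *Bdh1* and *Arg1* were also called higher in the low-total contrast, by 4.48, 2.81 and 5.67. The part that kind of library, injection or muscle transcripts have in the other differences was not tested for each gene.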

How the results depend on the processing

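The 288 genes called higher and 193 called lower on HFD became 464 and 122 with library totals alone, 93 and 78 with at least 10 counts in each saline library, 71 and 87 with the saline libraries thinned to the lowest total, and 989 and 1068 at the adjusted p alone. Fewer genes could be tested under the second, and fewer counts entered the third. The 10 saline libraries fitted alone called 162 higher, and a replicate block on them called 135 higher and 125 lower. Mice of the same number did not deviate together (Pearson's r across genes -0.376 to 0.0055), so the block pairs mice that share only a number. A low-total library term left 15 higher and 56 lower, with 3 larger and 3 smaller effects than in control mice (653 and 613 without it) and 38 genes called alike in both cohorts (124 without it), at a median standard error of 0.273. Leaving out 1 library gave 220 to 371 higher and 157 to 228 lower, and 344 to 721 larger effects, with 344 without HFD saline replicate 3. A muscle covariate, chosen after seeing the data, gave 270 larger and 307 smaller effects.

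Of single genes under planned and added alternatives 1707 values stayed on their side of the adjusted p threshold, 166 no longer passed it and 12 changed sign. The fold threshold did not enter these numbers, so calls lost through it alone are not among the 166. *Dio2* ranged from -0.65 to 0.59, the latter without chow replicate 1. The low-total term turned *Lcn8* (-1.501), *Lcn9* (-2.19), *Gpx5* (-1.90), *Adam7* (-1.93), *Adam28* (-2.17), *Apoa4* (-0.90), *Arg1* (-2.002), *Spp1* (-0.70), *Bdh1* (-0.49), *Aldoc* (0.22) and *Angptl4* (0.13), none of which passed there. The first 6 of these have no count in chow saline mice or in the other HFD C-3BO libraries, so their fitted values are no bound. The cause of the other changes was not tested. Depth limits genes below 3.01 CPM in HFD replicate 4.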

Other observations

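Of the genes that fell in both cohorts, several are known from xenobiotic and hormone metabolism and were chosen here after their values were seen. *Cyp1a1*, a cytochrome P450 induced by plant compounds through the aryl hydrocarbon receptor, was at 2.82 ± 1.70 CPM (SD, n = 5) on chow and 0.0833 ± 0.0771 CPM (SD, n = 5) on HFD, with every HFD mouse below every chow mouse. It fell by 4.61 ± 1.06 on the log2 scale in saline mice (± standard error, edgeR adjusted p = 0.00271), with log2 fold changes of -6.62 in control mice and -0.07 in the low-total contrast. *Hsd11b1*, which reactivates glucocorticoids, fell by 1.01 in saline and by 1.54 in control mice, with overlap between the saline groups. *Apoc1*, an apolipoprotein, was at 238 ± 66.0 CPM (SD, n = 5) on chow and 105 ± 16.4 CPM (SD, n = 5) on HFD, without overlap (log2 fold change -1.17 in saline and -1.60 in control mice). *Pygl*, a glycogen phosphorylase, had log2 fold changes of -1.24 and -1.43, and *Cdk6*, a cell cycle kinase, had -2.06 and -2.08, all of them called.

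Several lists showed few or no calls with edgeR. None of 13 glucocorticoid and metallothionein genes, 22 interferon response genes or 7 brain genes passed in saline mice with edgeR or DESeq2, with 5, 3 and 2 of them at an unadjusted p under 0.05. Of 71 cytosolic ribosomal protein genes 1 fell, and of 9 replication-type histone genes 1 fell. Of 6 kidney genes 2 rose, *Cyp2j5* and *Cyp4b1*, of 5 intestine genes 2 rose, *Apoa4* and *Lyz1*, and of 9 white adipocyte markers 3 rose (*Lep*, *Nnat* and *Dpt*) and 1 fell (*Retn*). The kidney and intestine genes that rose are also known outside these organs. With 1 mouse left out, the numbers that rose were 1 to 2 for each of these 2 lists, the calls of *Lyz1* and *Cyp4b1* were lost in 7 and 4 of 10 fits, and *Retn* lost its call without HFD mouse 1. Up to 2 brain genes, 1 interferon gene and 1 glucocorticoid or metallothionein gene were called with 1 mouse left out, and the ribosomal protein gene was not called without chow mouse 5 or HFD mouse 5.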
